A study of Mus musculus with 20 samples.

Results

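The genes examined are 3 cadherins that no sgRNA of the study targeted, Cdh1, Cdh13 and Cdh15, and Snai1, a transcriptional repressor of cadherin genes. They were chosen by symbol. The rows of the table of normalized counts were taken whose identifier the deposited comparison tables pair with those symbols, 4 of the 31130 genes, of which 4316 carry a symbol. All 4 were measured in all 20 libraries and passed the filter on low values, a mean normalized count of at least 10. The question is whether cadherins that were left intact change in mRNA level when Cdh2, Cdh3, Cdh4 and Cdh11 are targeted together.

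Cadherins are calcium-dependent adhesion receptors whose extracellular repeats bind cadherins on the next cell. In classical cadherins the cytoplasmic tail binds β-catenin, which binds α-catenin and through it the actin cytoskeleton. Cdh1 encodes E-cadherin, the classical cadherin of epithelia. Cdh15 encodes M-cadherin, a classical cadherin best known from skeletal muscle. Cdh13 encodes T-cadherin, which is held in the membrane by a lipid anchor and lacks the tail that binds catenins. Snai1 encodes Snail, a zinc-finger repressor that binds E-box sequences and is best known for repressing Cdh1 in epithelial-mesenchymal transition. In the kidney, nephron progenitor cells (NPCs) turn from mesenchyme into an epithelium under Wnt signals, so a change of cadherins is part of their normal course.

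The cells were mouse NPCs of E16.5 kidneys with the genotype Cas9-eGFP, which the study's methods trace to Gt(ROSA)26Sortm1.1(CAG-cas9*,-EGFP)Fezh/J mice crossed with SWR/J, so all groups, controls included, carried Cas9 and eGFP. They were grown in nephron progenitor expansion medium and lipofected with sgRNAs and mCherry mRNA. The knockout period lasted 48 h. CHIR, an inhibitor of GSK3β that stabilizes β-catenin, was then given for 24 h at 1.25 µM (low CHIR) or at 5 µM (high CHIR), and mCherry+ cells were sorted. CTRL cells received an sgRNA against GFP (3 libraries at each CHIR level), QCKO cells sgRNAs against Cdh2, Cdh3, Cdh4 and Cdh11 (2 and 2), α-catenin KO cells an sgRNA against Ctnna1 (2 and 2) and β-catenin KO cells one against Ctnnb1 (3 and 3). The sort selected cells that had taken up the reporter, not cells with a known edit. The replicate number stands for 1 of 3 dates in the sample titles: CTRL and β-catenin KO have all 3, QCKO replicates 2 and 3, and α-catenin KO replicates 1 and 3.

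The sequences below are the guides against 3 of the 4 targeted cadherins, shown because the members are defined by having no guide of their own. Each is the 5′ to 3′ RNA sequence that pairs with the gene.
Cdh3 sgRNA: ccgaugaagcccgcucggua
Cdh4 sgRNA: ccauccccaggcccaccgug
Cdh11 sgRNA: caccagcacagggucaggcc

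The libraries held 18124772 to 28472412 reads (median 21449823). Across 16691 genes, 2 libraries of a group correlated at Pearson's r of 0.928 to 0.98 on the log2 scale (16 pairs). The β-catenin KO libraries of replicate 1 stood apart from replicates 2 and 3 (r of 0.928 to 0.939, against 0.973 and 0.974 between replicates 2 and 3), and so did CTRL high CHIR replicate 2 from replicate 1 (r = 0.936). Member values without these libraries are given beside the results they move. The NPC marker Six2 averaged 1375 ± 377 normalized counts in CTRL at low CHIR and 72.4 ± 10.3 at high CHIR (SD, n = 3 each), and Wnt4, a marker of induced NPCs, 61.9 ± 18.0 and 4947 ± 688. A normalized count is a read count divided by 1 size factor per library, so levels of different genes are not compared here.

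Of the targeted cadherins, Cdh11 was the one whose mRNA lay wholly below CTRL in QCKO. It was 2519 and 1818 in low CHIR QCKO against 5112, 3594 and 4295 in CTRL, and 1005 and 589 in high CHIR QCKO against 2092, 1883 and 1968 in CTRL. The groups did not overlap at either CHIR level (exact permutation p = 0.1 at each, the smallest possible for 2 against 3 libraries). The QCKO means were 50.0% and 40.2% of CTRL, yet neither difference passed the test across all genes (adjusted p = 1.00 and 0.554, limma). Cdh2 was at 63.5% and 77.0% of CTRL, Cdh3 at 127% and 104%, and Cdh4 at 95.2% and 105%, with overlapping groups. Ctnna1 was at 40.4% and 47.4% of CTRL in α-catenin KO. The mRNA level does not report the edit or the protein, and Ctnnb1 carries no symbol here, so β-catenin KO was not checked.

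**Figure D1:**
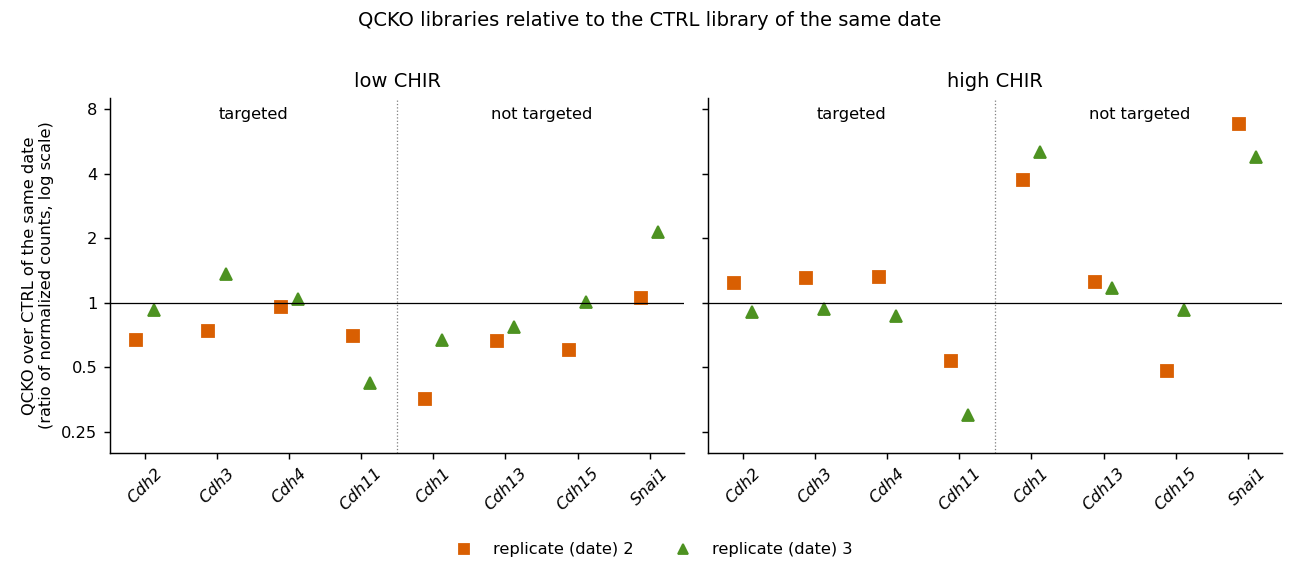
Normalized count of each QCKO library divided by that of the CTRL library of the same date (y axis, log scale) for the 4 targeted cadherins and the 4 members, at low and high CHIR, with 1 symbol per date. At high CHIR both Cdh1 points lie between 3.74 and 5.07 and both Snai1 points between 4.79 and 6.86, while Cdh13 and Cdh15 lie between 0.478 and 1.25.

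Cdh1 was low in all 3 CTRL libraries at high CHIR and higher in every QCKO and α-catenin KO library there, but no knockout passed the test against CTRL at either CHIR level. At high CHIR its normalized count was 24.9, 34.2 and 50.2 in CTRL replicates 1, 2 and 3 (mean 36.4 ± 12.8, SD, n = 3). It was 128 and 254 in QCKO replicates 2 and 3 (191 ± 89.4, n = 2). It was 77.3 and 309.6 in α-catenin KO replicates 1 and 3 (193 ± 164, n = 2). The QCKO and α-catenin KO libraries lay wholly above CTRL (exact permutation p = 0.1 for each, the smallest possible for 2 against 3 libraries). The share of all genes separated in this way was not counted, so nothing is read from the separation. β-catenin KO, at 40.4, 108 and 143 (97.0 ± 52.1, n = 3), overlapped CTRL. The log2 fold change against CTRL was 2.33 in QCKO (SE 1.00, 95% interval 0.16 to 4.51, adjusted p = 0.554), 2.11 in α-catenin KO (SE 1.00, interval -0.061 to 4.29, adjusted p = 0.704) and 1.26 in β-catenin KO (SE 0.90, interval -0.64 to 3.17, adjusted p = 0.373), by limma over all genes tested. With the date as a block QCKO was 1.63 above CTRL on the log2 scale (adjusted p = 0.304), and without CTRL replicate 2 it was 2.32 above (adjusted p = 0.918). Without the replicate 1 libraries of β-catenin KO, that knockout was 1.80 above CTRL (adjusted p = 0.263). With each library left out in turn the α-catenin KO value ran from 1.12 (without its replicate 3) to 3.11 (without its replicate 1). Within dates, QCKO was 3.74- and 5.07-fold above CTRL, α-catenin KO 3.10- and 6.17-fold, and β-catenin KO 1.62- to 3.15-fold. These 3 comparisons share the CTRL libraries, so their common direction is not 3 separate results. The table of QCKO against CTRL at high CHIR and that of α-catenin KO also list Cdh1, beside that of the CHIR response in CTRL, which holds the same CTRL libraries at high CHIR. The Cdh1 values at high CHIR are therefore a description, and their p-values are no independent test of it.

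At low CHIR the Cdh1 libraries of CTRL, α-catenin KO and β-catenin KO spread widely. CTRL had 34.8, 448 and 167 in replicates 1, 2 and 3 (217 ± 211). QCKO had 159.6 and 112 (136 ± 33.8), α-catenin KO 35.3 and 296 (166 ± 184), and β-catenin KO 63.4, 193 and 319 (192 ± 128). All knockout groups overlapped CTRL. The log2 fold change of QCKO was -0.050 with an interval from -2.23 to 2.13, so changes of over 4-fold in either direction lie inside it, and its sign turned when single libraries were left out. On both shared dates QCKO was below CTRL (0.356 and 0.669 of it), and with CTRL restricted to those dates the log2 fold change was -1.03 (adjusted p = 1.00, limma). Replicate 1 was the lowest library for Cdh1 in all 6 groups that have it. On the log2 scale the spread of Cdh1 between libraries of a group had an SD of 1.34, more than 98.5% of the 16516 genes in that fit, against a median of 0.39 over the 1000 genes nearest to it in level.

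**Figure D2:**
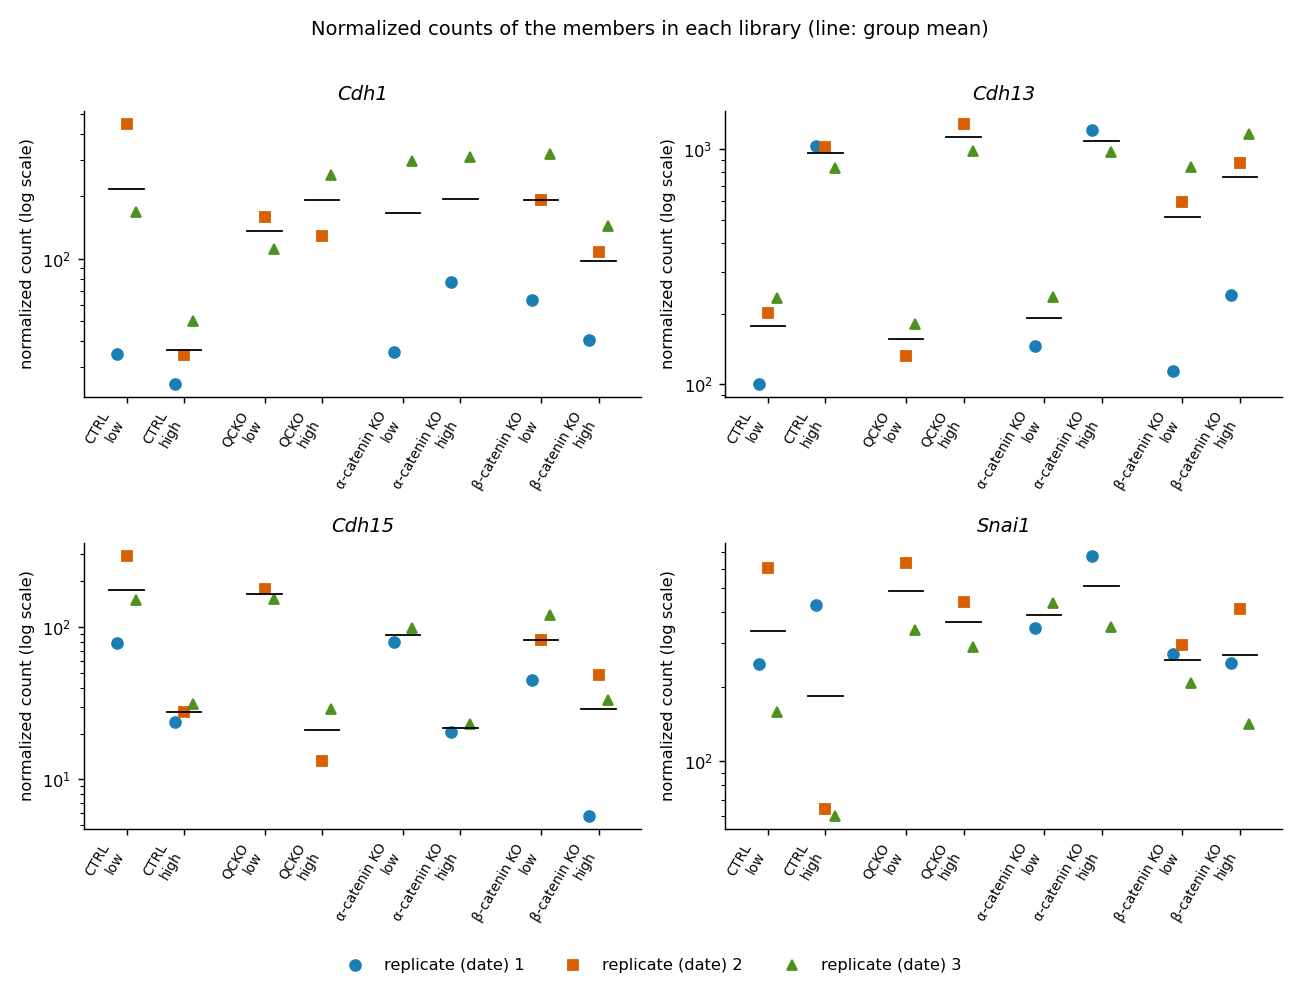
Normalized count (y axis, log scale) of Cdh1, Cdh13, Cdh15 and Snai1 in each of the 20 libraries, by knockout and CHIR level, with colour and symbol for the date and a line for the group mean. Cdh1 in CTRL at high CHIR sits between 24.9 and 50.2, below all QCKO and α-catenin KO libraries at high CHIR, and Snai1 in CTRL at high CHIR splits into 1 library at 426 and a pair at 64.1 and 60.3.

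The summed markers of the ureteric epithelium, the kidney epithelium known for Cdh1, lay above CTRL in QCKO and α-catenin KO at high CHIR and overlapped it in β-catenin KO. Of the 15 markers 5 carry a symbol (Wnt11, Hoxb7, Gata3, Krt8 and Tfap2b), and Ret is not among them. Hoxb7 and Gata3 make up most of the sum (means of 466 and 244 over the 20 libraries, against 158 for Krt8, 38.2 for Tfap2b and 3.94 for Wnt11). Their summed normalized count at high CHIR was 857 to 1028 in CTRL, 1710 to 1867 in QCKO, 1212 to 2012 in α-catenin KO and 552 to 1048 in β-catenin KO. At low CHIR it was 286 to 1008 in CTRL, 528 to 718 in QCKO, 394 to 915 in α-catenin KO and 445 to 790 in β-catenin KO. In CTRL the sum was higher at high than at low CHIR in replicates 1 and 3 and lower in replicate 2, while Cdh1 was lower in each. In QCKO the sum was higher on each date while Cdh1 split, and in α-catenin KO both were higher on each date. In β-catenin KO the sum was higher in replicates 1 and 2 and lower in replicate 3, while Cdh1 was lower in each. Wnt11, a marker of ureteric tips, was at 0 in 4 libraries and at most 15.5. The part of such cells in the Cdh1 difference was not tested, and in sorted bulk RNA fewer cells of a type and less RNA per cell cannot be told apart.

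Genes whose pattern over the 20 libraries was most like that of Cdh1 included Adgrg1, an adhesion G protein-coupled receptor (Pearson's r = 0.95), and Krt8, a keratin of simple epithelia (r = 0.84), out of 2869 genes with a symbol and a mean of at least 100. The points share dates and groups, so r describes these libraries. At high CHIR Krt8, which is also one of the ureteric markers above, was 22.7, 44.9 and 79.9 in CTRL, 120 and 102 in QCKO 229 and 466 in α-catenin KO and 80.9, 109 and 85.0 in β-catenin KO. All of these lay above CTRL, in a gene that was picked for following Cdh1.

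Cdh15 was lower at high than at low CHIR on every date, and no knockout passed the test against CTRL. At low CHIR it was 78.5, 294 and 150.3 in CTRL (174 ± 109, n = 3), 177 and 152 in QCKO (165 ± 17.4, n = 2), 80.0 and 98.4 in α-catenin KO (89.2 ± 13.0, n = 2) and 45.1, 82.0 and 120.1 in β-catenin KO (82.4 ± 37.5, n = 3). All 3 knockouts overlapped CTRL. At high CHIR it was 23.8, 27.8 and 31.3 in CTRL (27.6 ± 3.77), 13.3 and 29.0 in QCKO (21.1 ± 11.1), 20.6 and 23.2 in α-catenin KO (21.9 ± 1.83) and 5.78, 48.8 and 33.0 in β-catenin KO (29.2 ± 21.7). The 2 α-catenin KO libraries lay just below CTRL and the other knockouts overlapped it (exact permutation p = 0.2 for α-catenin KO). The lowest value, β-catenin KO replicate 1, rests on 5 reads, and over the 20 libraries the members had 22 to 414 reads (Cdh1), 106 to 1341 (Cdh13), 5 to 271 (Cdh15) and 60 to 731 (Snai1). For QCKO the log2 fold change was 0.12 at low CHIR (SE 0.48, interval -0.92 to 1.15) and -0.46 at high CHIR (SE 0.48, interval -1.50 to 0.57), with adjusted p of 1.00 and 0.721 by limma. For β-catenin KO it was -0.98 (SE 0.61) and -0.34 (SE 0.61), and -0.61 and 0.53 without its replicate 1 libraries, with an adjusted p of at least 0.501 in all 4.

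The 250 bases before the RefSeq start of Cdh15 are shown because they hold 3 E-boxes (CANNTG on either strand, in capitals), the kind of site that Snail and the muscle regulators bind. The window is chr8:122848124-122848373 on the plus strand of GRCm38.p6.
Cdh15 promoter: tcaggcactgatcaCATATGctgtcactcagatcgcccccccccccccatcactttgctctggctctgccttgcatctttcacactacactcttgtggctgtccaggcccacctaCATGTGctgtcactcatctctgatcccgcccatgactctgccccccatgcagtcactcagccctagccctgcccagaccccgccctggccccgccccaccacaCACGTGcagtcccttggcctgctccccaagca
They lie 236, 135 and 32 bases before the start. At least 1 CANNTG stands in 66.2% of 32851 promoter windows of this length, so its presence is common. None of the 3 is the Snail form CACCTG (or CAGGTG), which 17.2% of windows hold, and the TCF/LEF core CTTTGA or CTTTGT (27.6% of windows) is not in these letters.

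Markers of the muscle lineage, where Cdh15 is best known, are represented by 2 of 10 genes, Des and Chrna1, while Myod1, Myog and Pax7 carry no symbol here. Their sum was 1768 to 5235 in CTRL at low CHIR and 859 to 1446 at high CHIR, and nearly all of it was Des (807 to 5293 over the 20 libraries), an intermediate filament gene. In QCKO the sum was 4382 to 5313 and 824 to 899, in α-catenin KO 3302 to 4443 and 1193 to 1216, and in β-catenin KO 1376 to 3346 and 1040 to 2471. The sum was thus lower at high than at low CHIR in CTRL, QCKO and α-catenin KO, as Cdh15 was. In β-catenin KO the sum and Cdh15 both overlapped between CHIR levels, and both were lower at high CHIR on each date. The part of this sum in the result was not tested. The genes most like Cdh15 over the 20 libraries were Igdcc3 (r = 0.92), an immunoglobulin superfamily gene, Btbd11 (r = 0.91) and Cutal (r = 0.90). Replicate 1 was the lowest library for Cdh15 too in all 6 groups that have it.

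Cdh13 rose several-fold with CHIR in CTRL, QCKO and α-catenin KO, to overlapping ranges. At low CHIR it was 101, 200.4 and 233 in CTRL (178 ± 68.8, n = 3), 133 and 180.3 in QCKO (157 ± 33.6, n = 2) and 146 and 236 in α-catenin KO (191 ± 63.4, n = 2). At high CHIR it was 1034, 1025 and 834 in CTRL (964 ± 113), 1285 and 980.0 in QCKO (1132 ± 215) and 1203 and 975 in α-catenin KO (1089 ± 161). QCKO and α-catenin KO overlapped CTRL at both CHIR levels. The log2 fold change of QCKO against CTRL was -0.12 at low CHIR (SE 0.34, interval -0.84 to 0.61) and 0.23 at high CHIR (SE 0.34, interval -0.50 to 0.95), so the intervals leave out changes of 2-fold in either direction. Those of α-catenin KO were 0.15 (interval -0.58 to 0.88) and 0.17 (interval -0.55 to 0.90). None passed the test (adjusted p of 0.814 to 1.00, limma). In the 14 libraries without β-catenin KO, Cdh13 had an SD of 0.41 on the log2 scale between libraries of a group, the smallest of the 4 members.

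In β-catenin KO Cdh13 differed between dates more than between CHIR levels. It was 114, 597 and 839 in replicates 1, 2 and 3 at low CHIR (517 ± 369) and 239, 877 and 1163 at high CHIR (759.6 ± 473). At low CHIR replicates 2 and 3 lay above all 3 CTRL libraries, and replicate 1 lay inside their range. The log2 fold change against CTRL at low CHIR was 1.2 (SE 0.62, adjusted p = 0.765, limma). Without both β-catenin KO libraries of replicate 1, an alternative chosen after seeing the data, it was 2.07 with an adjusted p of 0.00280. At high CHIR the log2 fold change was -0.62 (SE 0.62, adjusted p = 0.539), and 0.073 without those libraries. Wnt4 moved with it: in the low CHIR libraries of β-catenin KO it was 30.1, 831 and 634 in replicates 1, 2 and 3, against 41.1 to 72.6 in CTRL.

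The endothelium, known for Cdh13, is represented by 1 of its 8 markers, Tek, while Cdh5, Pecam1 and Kdr carry no symbol. Tek was at 0 to 3.25 normalized counts in CTRL, 0.867 to 2.89 in QCKO, 5.16 to 7.64 in α-catenin KO and 3.0 to 4.80 in β-catenin KO at low CHIR. At high CHIR it was 89.7 to 177, 221 to 357, 92.7 to 383 and 4.62 to 85.3. It moved with Cdh13 across CHIR, and its part in the result was not tested. The genes most like Cdh13 over the 20 libraries were Syk, a cytoplasmic tyrosine kinase, Cthrc1, a secreted collagen triple helix protein, and Lef1, a DNA-binding partner and target of β-catenin (r = 0.97 each). Lef1 was 62.5 to 72.6 in CTRL at low CHIR and 948 to 1465 at high CHIR.

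Snai1 gave its highest mean in α-catenin KO at high CHIR and its lowest in CTRL at high CHIR. At high CHIR it was 426, 64.1 and 60.3 in CTRL replicates 1, 2 and 3 (184 ± 210.3, n = 3), so that replicate 1 stood far above the other two. It was 439 and 289 in QCKO replicates 2 and 3 (364 ± 106, n = 2), 676 and 349 in α-catenin KO replicates 1 and 3 (513 ± 231, n = 2) and 251, 411 and 141 in β-catenin KO (268 ± 136, n = 3). All knockout libraries lay above CTRL replicates 2 and 3, and all 3 groups overlapped CTRL through replicate 1. The log2 fold change of QCKO was 1.58 (SE 0.75, interval -0.049 to 3.21, adjusted p = 0.554, limma), and the exact permutation p was 0.3. Without CTRL replicate 2, the library that stood apart, it was 1.14 (adjusted p = 0.928). On their shared dates QCKO was 6.86- and 4.79-fold above CTRL. With CTRL restricted to those dates, an alternative chosen after seeing the data, the log2 fold change was 2.5 with an adjusted p of 0.122. For α-catenin KO the table of that comparison gave Snai1 its symbol, so its log2 fold change of 2.03 (SE 0.75) is a description. QCKO and β-catenin KO are set against the same CTRL libraries, so their Snai1 values at high CHIR are descriptions too. Their p-values are no independent test. With each library left out in turn the α-catenin KO value ran from 1.55 to 2.95, the last without CTRL replicate 1, and it was 1.59 without CTRL replicate 2. β-catenin KO was 1.04 above CTRL on the log2 scale (SE 0.64, adjusted p = 0.299). With each library left out in turn this value ran from 0.56 to 1.96. It was 1.96 without CTRL replicate 1, the one of these settings in which it was called (adjusted p = 0.0182), 0.60 without CTRL replicate 2 (adjusted p = 0.677) and 1.02 without the replicate 1 libraries of β-catenin KO (adjusted p = 0.422).

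At low CHIR Snai1 was 246, 601 and 159 in CTRL (335 ± 234), 634 and 340.3 in QCKO (487 ± 208), 345 and 436 in α-catenin KO (391 ± 64.5) and 271, 294 and 207 in β-catenin KO (257 ± 45.2). All knockout groups overlapped CTRL, and 1 QCKO library lay above its highest value. QCKO was 1.05- and 2.14-fold above CTRL on the 2 shared dates, with a log2 fold change of 0.69 (SE 0.75, interval -0.93 to 2.32, adjusted p = 1.00, limma). The spread of Snai1 between libraries of a group had an SD of 1.00 on the log2 scale, more than 95.5% of genes, against a median of 0.30 over the 1000 genes nearest in level.

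The genes most like Snai1 over the 20 libraries were Pdcd2l (r = 0.91), Atp5b, a subunit of mitochondrial ATP synthase (r = 0.90), and Nelfb, a subunit of a factor that pauses RNA polymerase II (r = 0.89). The same CTRL libraries were low in each. Atp5b was 17334 in CTRL high CHIR replicate 1 but 4584 and 7507 in replicates 2 and 3, the lowest values of the 20 libraries, and it was 16883 and 20146 in QCKO and 18929 and 17099 in α-catenin KO at high CHIR. Pdcd2l was 614, 159 and 248 in the 3 CTRL libraries and 622 to 703 in those 4 knockout libraries. The part of whatever sets these libraries apart in the Snai1 difference was not tested.

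**Figure D3:**
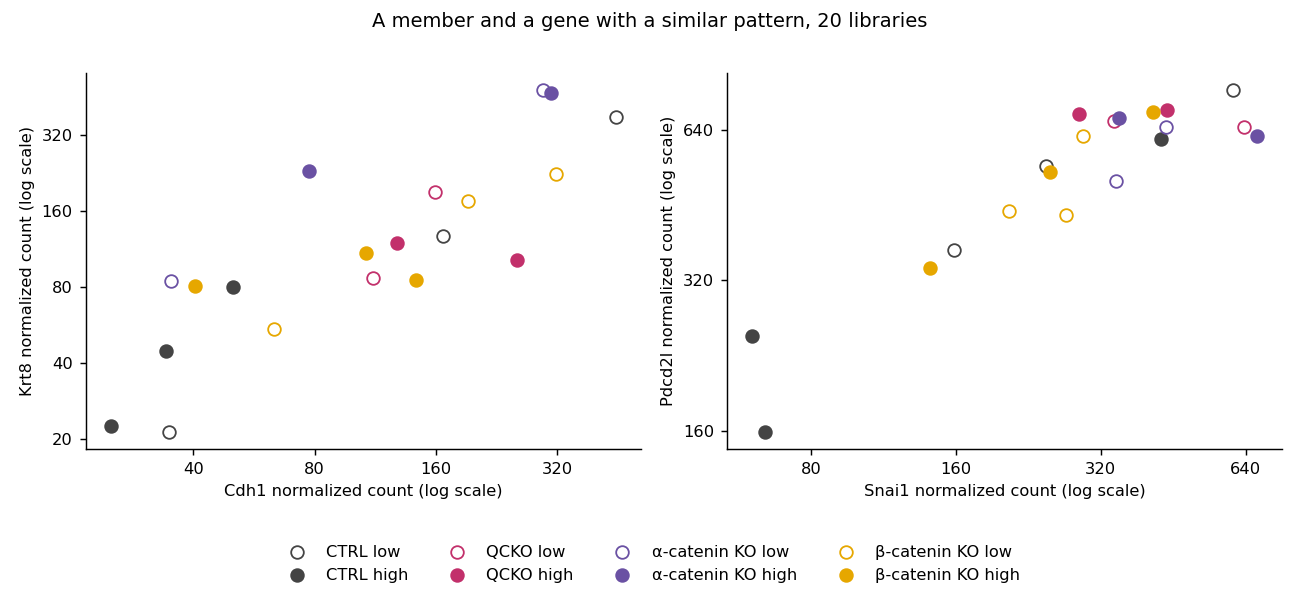
Normalized counts (both axes, log scale) of Cdh1 against Krt8 (left) and of Snai1 against Pdcd2l (right) in the 20 libraries, coloured by knockout, open for low and filled for high CHIR. In the right panel CTRL high CHIR replicates 2 and 3 lie apart at the lower left, with Snai1 at 64.1 and 60.3 and Pdcd2l at 159 and 248.

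The Snai1 promoter is shown because Snail is known to bind E-boxes and β-catenin acts through TCF/LEF sites, so both motifs were searched in it. The capitals mark the Snail E-box CACCTG (17.2% of windows). The window is chr2:167537945-167538194 on the plus strand of GRCm38.p6.
Snai1 promoter: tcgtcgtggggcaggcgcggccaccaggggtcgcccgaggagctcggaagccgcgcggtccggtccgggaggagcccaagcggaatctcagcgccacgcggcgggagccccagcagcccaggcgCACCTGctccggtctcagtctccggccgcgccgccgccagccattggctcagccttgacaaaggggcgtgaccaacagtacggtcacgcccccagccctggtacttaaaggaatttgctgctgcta
The E-box lies 126 bases before the start and is the only CANNTG in the window. A TCF/LEF core (CTTTGT on the other strand, left in lower case) lies 69 bases before the start. These are matches of letters, and nothing here measured binding. The RefSeq gene bodies of the 3 cadherins all lie on chromosome 8 (Cdh1 at 106603350 to 106670247, Cdh13 at 118140017 to 119324929, Cdh15 at 122848374 to 122867397), and Snai1 lies on chromosome 2 (167538195 to 167542814).

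Counted over the members, no untargeted cadherin and no Snai1 change was called in any knockout against CTRL. To be called, a gene needed an adjusted p below 0.05 by limma and a log2 fold change larger than 0.5 in size. For QCKO 0 of 4 were called at low CHIR, where 0.00605% of 16516 genes were called, and 0 of 4 at high CHIR, where 0% were. At an unadjusted p under 0.05 the count was 0 of 4 at low CHIR (1.61% of all genes) and 1 of 4 (Cdh1) at high CHIR (8.74%), where the deposited table had listed Cdh1 by its unadjusted p. EdgeR and DESeq2 called 0 of 4 at both levels. Over all genes edgeR called 1 at low and 0 at high CHIR, and DESeq2 called 2 and 7. For α-catenin KO 0 of 4 were called at low CHIR (0% of all genes) and 0 at high CHIR (0%), and 0 by edgeR and by DESeq2 at both levels. Over all genes edgeR called 0 at each level there, and DESeq2 called 1 at low and 4 at high CHIR. At an unadjusted p under 0.05 the count was 0 at low CHIR (0.66% of all genes) and 1, Snai1, at high CHIR (5.62%), where nothing is read from it, since the deposited table of that comparison listed Snai1 by its unadjusted p. For β-catenin KO 0 of 4 were called at low CHIR, where 0.0659% of 16691 genes were, and 0 at high CHIR, where 10.5% were, and 0 by edgeR and DESeq2. Over all genes edgeR called 13 at low and 1757 at high CHIR there, and DESeq2 called 189 and 2515. None was at an unadjusted p under 0.05 at either level, where 6.86% and 27.4% of all genes were. With so few genes called in QCKO and α-catenin KO over the whole table, a count of 0 members says little about the members themselves.

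**Figure D4:**
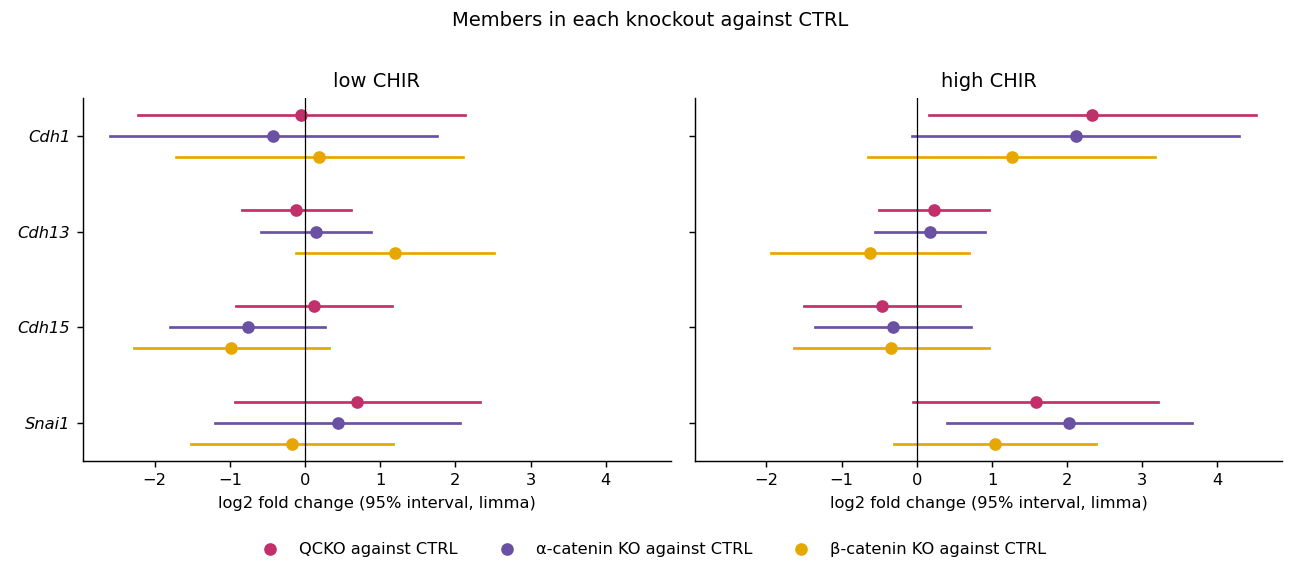
Log2 fold change of each member in each knockout against CTRL (x axis, point) with its 95% interval (line, limma), at low and high CHIR. The Cdh13 intervals for QCKO span -0.84 to 0.61 and -0.50 to 0.95, while those of Cdh1 span -2.23 to 2.13 and 0.16 to 4.51. The intervals are not adjusted for the number of genes, and the values of Cdh1 and Snai1 at high CHIR are descriptions only.

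QCKO and α-catenin KO were not called different from each other in any member, with 0 of 4 called at low CHIR (0% of all genes) and 0 of 4 at high CHIR (0%), and 0 by edgeR or DESeq2. None was at an unadjusted p under 0.05, where 1.14% of all genes were at low and 0.745% at high CHIR. At high CHIR the difference for Cdh1 was 0.22 on the log2 scale (interval -2.16 to 2.60), for Cdh13 0.051 (-0.75 to 0.85), for Cdh15 -0.14 (-1.28 to 0.99) and for Snai1 -0.45 (-2.23 to 1.34). The Cdh13 interval is the only one of these that stays under a 2-fold change. At low CHIR Cdh15 was higher in both QCKO libraries than in both α-catenin KO libraries, with a log2 difference of 0.88 (interval -0.25 to 2.01, adjusted p = 1.00, limma). The exact permutation p was 0.333, the smallest possible for 2 against 2 libraries.

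For Cdh13 and Cdh15 the log2 change with CHIR in CTRL, QCKO and α-catenin KO exceeded in size that of QCKO or α-catenin KO against CTRL, a difference in size that was not tested. In CTRL the log2 fold change from low to high CHIR was 2.51 (SE 0.30) for Cdh13, -2.42 (SE 0.43) for Cdh15, -1.95 (SE 0.90) for Cdh1 and -1.27 (SE 0.67) for Snai1. The table of this comparison gave the 3 cadherins their symbols, so these values describe them and carry no test, and nothing is read from 2 of 4 members called beside 10.7% of all genes. The same holds with the date as a block, where Cdh1 passed as well (adjusted p = 0.0271, limma), and with DESeq2 (-2.55, adjusted p = 0.0487), values that are no test of Cdh1 either. Leaving out single libraries, the Cdh1 value ran from -2.93 (without low CHIR replicate 1) to -1.11 (without low CHIR replicate 2). Without CTRL high CHIR replicate 1, Snai1 was called at -2.19 (adjusted p = 0.0123), and without CTRL high CHIR replicate 2 it was -0.83 (adjusted p = 0.560). Snai1 was given its symbol by α-catenin KO against these CTRL high CHIR libraries, so its values are no independent test either. In QCKO Cdh13 rose by 2.85 (SE 0.37, adjusted p = 0.000555) and Cdh15 fell by 3.0 (SE 0.52, adjusted p = 0.00455) on the log2 scale, so 2 of 4 were called where 4.93% of all genes were. Both genes have a symbol through their CHIR response in CTRL, so nothing is read from the member counts in the knockouts. Cdh15 was not called without QCKO replicate 2 at low CHIR (adjusted p = 0.0506) or at high CHIR (adjusted p = 0.0645). In α-catenin KO Cdh13 rose by 2.54 (SE 0.37, adjusted p = 0.00163), the 1 of 4 called where 4.39% of genes were, and in the fit over all 20 libraries its adjusted p was 0.0941. Cdh15 was -1.97 there (SE 0.52, adjusted p = 0.0539), and with the date as a block it was called (adjusted p = 0.0278). In β-catenin KO 0 of 4 were called where 0.018% of genes were, with 1 (Cdh15, -1.78, SE 0.61, adjusted p = 0.873) at an unadjusted p under 0.05, as 4.44% of all genes were, and 0 by edgeR or DESeq2. Leaving out single libraries, that value ran from -2.35 to -0.91, the last without the high CHIR library of replicate 1 that holds 5 reads, and it was -1.29 without both replicate 1 libraries. All adjusted p are from limma.

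Within dates, Cdh13 was higher at high than at low CHIR in 3 of 3 CTRL pairs (3.58- to 10.3-fold), 2 of 2 QCKO pairs (5.44- and 9.68-fold), 2 of 2 α-catenin KO pairs (4.13- and 8.23-fold) and 3 of 3 β-catenin KO pairs (1.39- to 2.10-fold). Cdh15 was lower at high CHIR in all 10 pairs, at 0.0750 to 0.595 of the low CHIR library. Cdh1 was lower at high CHIR in 3 of 3 CTRL pairs (0.0762 to 0.717 of low CHIR) and 3 of 3 β-catenin KO pairs (0.449 to 0.638), higher in 2 of 2 α-catenin KO pairs (1.05- and 2.19-fold), and split in QCKO (0.802 and 2.27). Snai1 was split in CTRL (0.107 to 1.73), α-catenin KO (0.80 and 1.96) and β-catenin KO (0.684 to 1.4), and lower at high CHIR in both QCKO pairs (0.693 and 0.849).

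**Figure D5:**
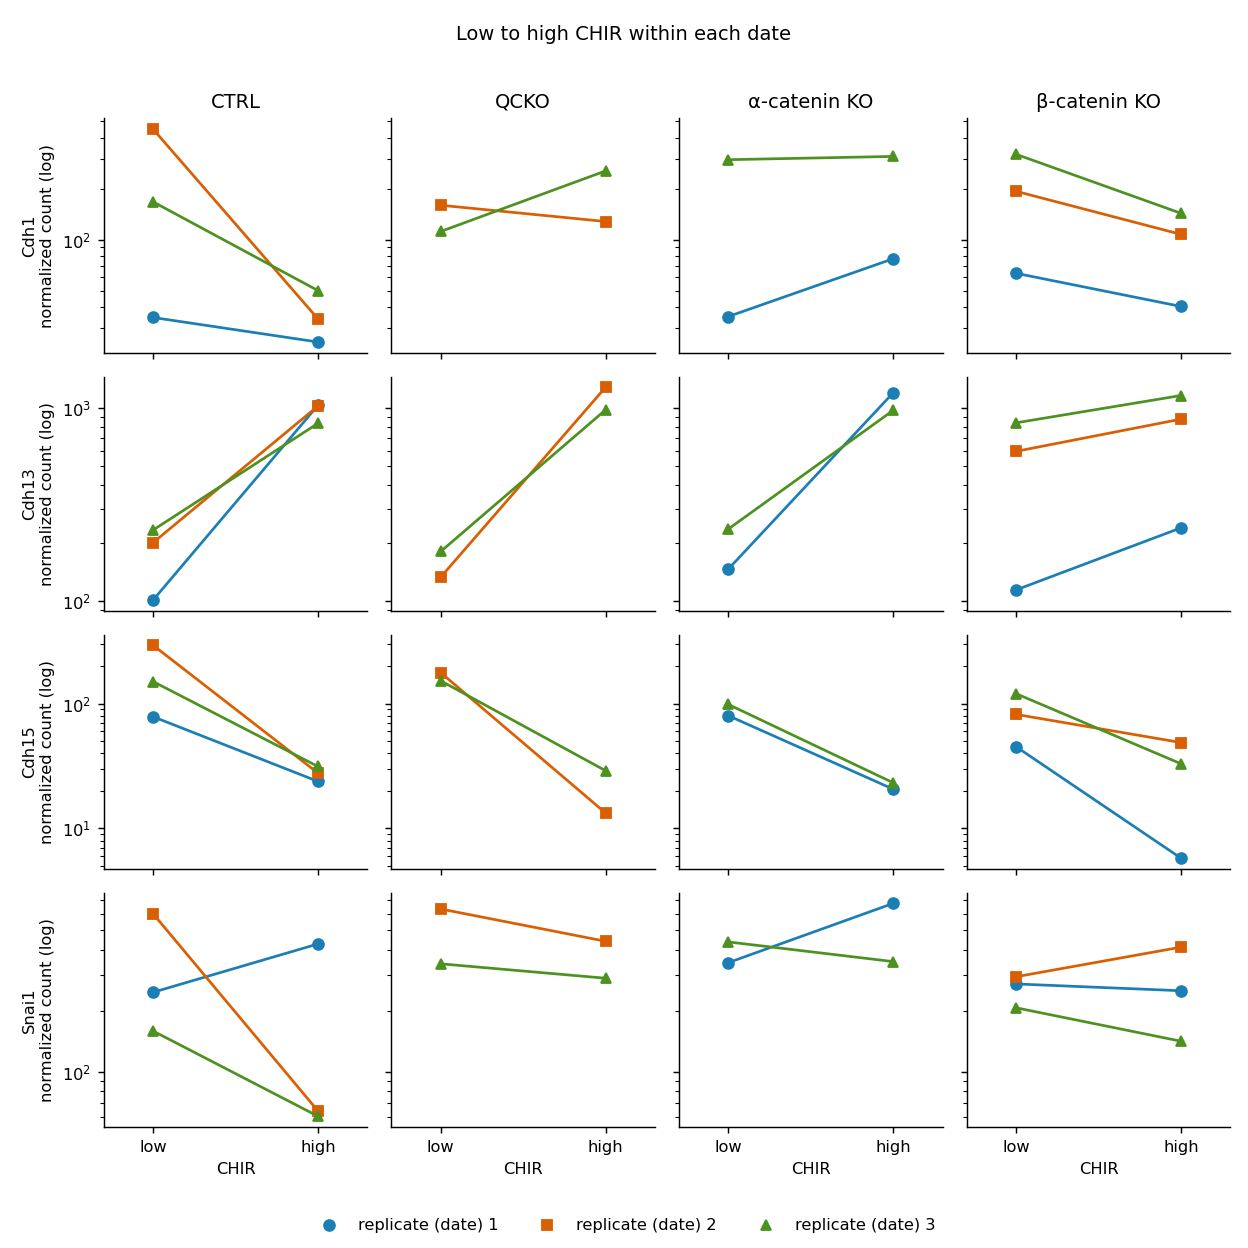
Normalized count (y axis, log scale) of each member at low and high CHIR, with a line joining the libraries of 1 date, for each knockout. Cdh13 rises and Cdh15 falls on every line, while Cdh1 falls in CTRL and β-catenin KO, rises in α-catenin KO and has 1 line each way in QCKO.

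The difference of the CHIR response from that in CTRL was fitted as one contrast. It subtracts the CTRL response by which the 3 cadherins were listed, and it uses the CTRL high CHIR libraries against which Snai1 was listed. Its values for the members are therefore no independent test. In it 0 of 4 members were called for QCKO (0% of all genes), α-catenin KO (0%) or β-catenin KO (0.671%), and 0 by edgeR or DESeq2. None was at an unadjusted p under 0.05, where 1.29%, 1.56% and 10.4% of all genes were. For QCKO the Cdh1 response exceeded that of CTRL by 2.38 on the log2 scale (SE 1.42, interval -0.69 to 5.46), and the responses of Cdh13, Cdh15 and Snai1 differed by 0.34 (SE 0.48), -0.58 (SE 0.67) and 0.89 (SE 1.06). Leaving out single libraries, these ran from 1.54 to 3.36 for Cdh1, 0.10 to 0.70 for Cdh13, -1.11 to -0.041 for Cdh15 and 0.35 to 1.80 for Snai1. For β-catenin KO the Cdh13 response was lower than that of CTRL by 1.81 (interval -3.67 to 0.045, adjusted p = 0.493, limma). Without both β-catenin KO libraries of replicate 1 it was -2.0 with an adjusted p of 0.0579.

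Across the 8 groups, the order of Cdh13 means put the 4 high CHIR groups first and the 4 low CHIR groups last, QCKO high CHIR (1132) leading and QCKO low CHIR (157) closing. Each group overlapped the next in that order. Cdh15 had the reverse order, with all low CHIR groups (82.4 to 174) above all high CHIR groups (21.1 to 29.2). QCKO low CHIR did not overlap α-catenin KO low CHIR below it, nor did CTRL high CHIR overlap α-catenin KO high CHIR. For Cdh1 7 groups lay between 97.0 and 217 with overlapping libraries and CTRL high CHIR lay last at 36.4. Its libraries still overlapped those of β-catenin KO high CHIR, CTRL low CHIR and α-catenin KO low CHIR. For Snai1 the means ran from 184 to 513 with each group overlapping the next.

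The other cadherin and junction genes carry a symbol only where a deposited table listed them for some comparison, so the counts and medians below are over a selected set. In QCKO or α-catenin KO against CTRL none of these list genes was called at either CHIR level, where at most 0.00605% of all genes were, so nothing is read from it. Of the 23 Cdh genes 8 have a symbol and were tested, and their median log2 fold change in QCKO was -0.065 at low and -0.12 at high CHIR. The medians were 0.018 and 0.025 over all genes, and 0.016 and 0.071 over tested genes with a symbol. Of 46 other cadherin superfamily genes 19 were tested (median 0.20 and 0.83), of 26 catenins and junction partners 6 (0.27 and 0.70), of 25 transcription factors of epithelial-mesenchymal transition and their opponents 9 (0.11 and 0.13) and of 37 epithelial junction and polarity genes 7 (-0.18 and 0.87). In α-catenin KO at high CHIR these medians were 0.11, 0.56, 0.60, 0.24 and 1.37 in the same order, against 0.022 over all genes and 0.078 over tested genes with a symbol. The deposited tables of QCKO and α-catenin KO at high CHIR listed genes by unadjusted p, so the list medians are descriptions. Both knockouts are set against the same CTRL libraries.

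From low to high CHIR in CTRL, 6 of the 8 Cdh genes were called, 3 in each direction, where 10.7% of all genes were. The deposited table of this comparison gave list genes, Cdh13 and Cdh15 among them, their symbols, so high counts are built in and nothing is read from their number. Cdh3, encoding P-cadherin, rose by 2.70 on the log2 scale and Cdh4, encoding R-cadherin, by 1.84, beside Cdh13. Cdh2, encoding N-cadherin, fell by 1.23 and Cdh11 by 1.12, beside Cdh15. Of the 19 other superfamily genes 3 rose and 6 fell, led by Fat3 (-4.18), a giant protocadherin, Cdhr1 (-2.69), Pcdh1 (-2.66) and the desmosomal Dsc2 (2.12). Of the 6 catenins and partners 2 rose, Ctnnd2 (2.5), encoding δ-catenin, and Ctnnal1 (0.91), and Pkp4 fell (-0.71). Of the 9 transcription factors 4 rose and 4 fell, led by Ovol1 (3.21), a repressor that opposes mesenchymal genes, and by the mesenchymal factors Snai2 (-3.18), Foxc2 (-3.15) and Zeb1 (-2.73). Of the 7 epithelial genes Marveld2 (2.49) and Patj (0.87), a tight junction protein and a polarity scaffold, rose and Cldn1 (-1.59) fell. The adjusted p of the genes named here ran up to 0.0464 (limma).

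In QCKO the CHIR response of Cdh3 (2.36), Cdh4 (1.96) and Cdh11 (-1.47) was called with the sign it had in CTRL, as was that of Fat3 (-3.85), Pcdh1 (-3.17), Dsc2 (2.66), Ctnnd2 (4.92), Snai2 (-2.70), Zeb1 (-3.11), Foxc2 (-3.67), Ovol1 (2.90), Patj (1.24) and Marveld2 (3.55). In α-catenin KO it was called for Cdh3 (3.18), Cdh4 (1.83), Cdh11 (-1.65), Fat3 (-4.40), Pcdh1 (-2.23), Dsc2 (3.44), Ctnnd2 (3.87), Pkp4 (-0.99), Snai2 (-2.60), Zeb1 (-2.57), Foxc2 (-3.66), Ovol1 (3.54) and Patj (1.17). Cdh2, called in CTRL, was not called in QCKO (-0.91, adjusted p = 0.310) or α-catenin KO (-0.97, adjusted p = 0.268, limma). Nor were Cdhr1, Ctnnal1 and Cldn1 called in either. None of these genes was called for a difference of its response in QCKO or α-catenin KO from that in CTRL, nor was any other gene of the table. In β-catenin KO against CTRL at high CHIR, Cdh4 was lower (-1.46), and Fat3 (3.11), Pcdh1 (3.02), Pcdhb13 (1.54), Pcdhgb6 (2.13), Pcdhgb7 (1.90) and Pcdhgc3 (1.15) were higher. The clustered protocadherins share sequence, so reads may be divided among them uncertainly. Snai2 (2.06), Zeb1 (2.62), Foxc2 (3.69) and Sox9 (1.28) were higher there too, while Snai1 was not called. Cldn1 (1.82) and Actn4 (1.48), which encodes an actin crosslinker, were also higher, with an adjusted p of at most 0.0499 for the genes named (limma). The CHIR response in β-catenin KO minus that in CTRL was called for Fat3 (3.29), Foxc2 (3.46) and Zeb1 (2.54), with an adjusted p of at most 0.0424 (limma). These genes fell with CHIR in CTRL (-4.18, -3.15 and -2.73), and none was called for its response within β-catenin KO.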

How the data were processed

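RNA was made into SMARTer Ultra Low libraries and sequenced on a NovaSeq. The deposited signal values are per-gene counts scaled by the authors with a single size factor for each library. The fold changes and p-values in the deposited comparison tables were not used, but these tables gave the symbols. Symbols were matched to RefSeq (GRCm38.p6) for positions and promoters. The submitters' processing notes name STAR, featureCounts, Salmon and DESeq2 with no role. Groups, dates and CHIR levels came from the labels.

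Log2(normalized count + 1) was fitted in R 4.3.3 with limma 3.58.1 (1 mean per group, trend), over genes with a mean of at least 10, in the 14 libraries without β-catenin KO or, for comparisons with it, all 20. P-values were Benjamini-Hochberg adjusted over all genes tested. The added 1 makes fold changes of low genes too small. Exact permutation tests were two-sided. The members, lists and tests were chosen with earlier results of these data known. The genes named are the members, the targeted genes, 3 induction markers, the 3 genes most like each member (1 of them is not reported here), and the list genes called (all where 6 or fewer, otherwise the 4 largest). Single markers of other cell types were named after their values were seen. Jag1, the induction marker not given above, averaged 447.9 ± 279 in CTRL at low and 7830 ± 5310 at high CHIR.

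NPC markers (6 of 10 with a symbol) summed to 12877 to 18271 normalized counts in CTRL at low and 1224 to 1921 at high CHIR, and induced NPC markers (5 of 10) to 309 to 1080 and 8711 to 24631. The 1 stromal marker of 10 with a symbol, Meis1, ran from 537 to 3220 over the 20 libraries, and the 1 leukocyte marker of 8, Cd74, from 216 to 641.

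The date in the titles pairs the libraries. Across genes, deviations from the group means correlated between libraries of 1 date and 1 sgRNA set, low against high CHIR, at 0.0474 to 0.721 (10 pairs). The alternatives were the date as a block, other filters, scalings and sample sets, each library left out, and edgeR 4.0.16 and DESeq2 1.42.0 on reads recovered from the values. In 2 libraries the size factor is within 1% of 1, so the recovery could not be checked there. The study calls its sequenced samples biological replicates, but the sources used here do not say that libraries of a group came from separate animals, so p-values measure the spread between these libraries. Statistics were tested on simulated data.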

Additional observations from a re-analysis of the deposited data

Results flagged for a closer look

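Cdh1 in α-catenin KO moved with CHIR in the direction opposite to CTRL: it was higher at high CHIR in 2 of 2 pairs of libraries of 1 date (1.05- and 2.19-fold) and lower in 3 of 3 CTRL pairs (0.0762 to 0.717). Deposited tables listed Cdh1 for the CTRL response and for α-catenin KO at high CHIR, so this contrast rests on values used to choose it. The difference between the responses did not pass the test, at 2.54 on the log2 scale (SE 1.42, interval -0.54 to 5.62, adjusted p = 0.999, limma). With the date as a block the value was 2.54 (SE 0.83, adjusted p = 0.956), and with each library left out in turn it ran from 1.02 to 4.06. The fitted response in α-catenin KO alone was 0.59 (adjusted p = 0.915, limma). It turned sign with single libraries left out, from -0.93 to 2.10.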

How the results depend on the processing

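In QCKO and α-catenin KO against CTRL, 0 of 134 and 0 of 134 member values were called over the alternatives, and in β-catenin KO 2 of 134. With 2 or 3 libraries a group, 1 library often set the sign of a small difference, and the cause was not tested. The limits are the number of libraries and, for Cdh15 at high CHIR, few reads.

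At a mean of at least 100, where Cdh15 was not tested, 1 member was called for the CHIR response in CTRL and 1 in QCKO. In α-catenin KO 0 were called with all 20 libraries, 2 with the replicate block and 2 with DESeq2. With quantile normalization the Cdh13 response in α-catenin KO minus CTRL was -0.010. With the replicate block (pairing by date), Cdh15 in QCKO at low CHIR was -0.085, and QCKO minus α-catenin KO was -0.69 (low) and -0.84 (high) for Cdh1 and -0.14 (high) for Cdh13. Beside the calls named in the report, the block changed no other member call. EdgeR and then DESeq2 gave -0.10 and -0.082 for Cdh15 in QCKO at low CHIR, -0.17 and -0.17 for Cdh1 in β-catenin KO at low CHIR, 0.079 and 0.056 for Cdh15 there at high CHIR, 0.051 and 0.054 for the Snai1 CHIR response there, and -0.32 and -0.30 (low) and -0.036 and -0.018 (high) for Cdh1 in QCKO minus α-catenin KO.

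Chosen after seeing the data, CTRL of shared dates only gave -0.35 for Cdh15 in QCKO at low CHIR, 0.42 for Cdh1 in α-catenin KO at low CHIR, and response differences in α-catenin KO of -0.053 (Cdh13) and -0.020 (Cdh15). Without both β-catenin KO replicate 1 libraries, also chosen then, 1 member (Cdh13) was called there at low CHIR, and at high CHIR Cdh13 was 0.073 and Cdh15 0.53.

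With each library left out in turn, differences that changed sign had these ranges. QCKO against CTRL at low CHIR gave -1.03 to 0.79 (Cdh1), -0.48 to 0.12 (Cdh13) and -0.35 to 0.59 (Cdh15), and at high CHIR -1.0 to 0.075 (Cdh15). α-catenin KO at low CHIR gave -1.94 to 1.09 (Cdh1) and -0.22 to 0.49 (Cdh13). β-catenin KO gave -0.79 to 1.03 (Cdh1, low), -0.60 to 0.36 (Snai1, low), -1.07 to 0.073 (Cdh13, high) and -0.91 to 0.53 (Cdh15, high). The CHIR response gave -0.062 to 0.92 (Cdh1) and -0.83 to 0.066 (Snai1) in QCKO, -0.93 to 2.10 (Cdh1) and -0.15 to 0.80 (Snai1) in α-catenin KO, and -0.18 to 1.39 (Cdh13) and -0.43 to 0.34 (Snai1) in β-catenin KO. Response differences in α-catenin KO gave -0.32 to 0.39 (Cdh13) and -0.027 to 0.92 (Cdh15). QCKO minus α-catenin KO gave, at low CHIR, -1.14 to 1.89 (Cdh1), -0.61 to 0.080 (Cdh13) and -0.19 to 0.71 (Snai1) and, at high CHIR, -0.78 to 1.21 (Cdh1), -0.14 to 0.25 (Cdh13), -0.68 to 0.39 (Cdh15) and -0.92 to 0.030 (Snai1). Members called ran from 0 to 1 for β-catenin KO at either CHIR level, 2 to 3 for the CHIR response in CTRL and 1 to 2 in QCKO.

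Counts over all genes moved more. For β-catenin KO at high CHIR 1757 genes were called, 240 with the groups compared alone, 2881 with the block, and 863 (without β-catenin KO replicate 1) to 3060 (without CTRL replicate 1) with a library left out. At low CHIR 11 were called, 0 to 189 by setting and up to 203 without β-catenin KO replicate 1. For the CHIR response 1760 were called in CTRL (761 to 2556 by setting, 1053 to 2986 with a library left out), 814 in QCKO (540 to 1855 and 368 to 399), 725 in α-catenin KO (504 to 1186 and 281 to 496) and 3 in β-catenin KO (0 to 57 and 1 to 4). For the response difference in β-catenin KO 112 were called (50 to 400 and 46 to 207). DESeq2 called 2 and 7 genes in QCKO at low and high CHIR and 4 in α-catenin KO at high CHIR, where limma called 1, 0 and 0.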
